A study of Mus musculus with 2 samples.

Results

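Fibroblasts with reads of Scara5, which codes for a scavenger receptor that binds ferritin, were described in the ear skin of mice with IgE-mediated chronic allergic inflammation (IgE-CAI). The cells were chosen by thresholds on their own reads, as counts per 1000000 reads of the cell (CPM). Of the 8953 cell barcodes of the cDNA library, 8359 had at most 20% mitochondrial reads and at least 200 genes. Of these, 1752 were fibroblasts within the remaining limits: at least 50 CPM of Pdgfra, at least 5000 CPM of the collagens Col1a1 and Col3a1 together, under 50 CPM of the leukocyte gene Ptprc, under 100 CPM of the tendon and cartilage genes Chad and Cilp2, and under 150 CPM of 6 cell division genes. The 453 cells with at least 50 CPM of Scara5 are called Scara5-positive fibroblasts here, and the other 1299 Scara5-low fibroblasts.

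The mice were WT and Ccr2-/- animals on the BALB/c background, and the Ccr2-/- mice lack the chemokine receptor CCR2 in the whole body. The study used male mice of 7 to 12 weeks. All of them received 300 µg of TNP-specific IgE intravenously and then 10 µg of TNP-conjugated ovalbumin into the ear skin, and cells were isolated by Liberase digestion and Percoll separation on day 3 or day 5 after this challenge. Each combination of genotype and day was 1 pool with its own hashtag antibody, and 10000 labelled cells of the 4 pools were sequenced together by TAS-Seq. The number of mice in a pool was not given in the sources used here, and no pool was repeated. No unchallenged skin was among these pools. The study sequenced these pools to ask how macrophages that derive from monocytes limit the inflammation. A hashtag placed 400 of the 453 Scara5-positive fibroblasts in a pool: 97 in WT day 3, 103 in WT day 5, 92 in Ccr2-/- day 3 and 108 in Ccr2-/- day 5, and 53 had no clear hashtag. Of the Scara5-low fibroblasts, 196, 138, 461 and 328 were placed in these pools. Values of the 4 pools are given in this order throughout.

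The cDNA library held 548117598 reads, and 8696 of its barcodes were also in the hashtag library. Ccr2, the targeted gene, had 347, 341, 13.3 and 11.9 CPM over all cells kept in the 4 pools, so the labels and the reads of the targeted gene went together. Scara5-positive fibroblasts had 6956537 to 12198008 reads per pool, with medians of 62635, 70372, 92263.5 and 93948 reads per cell. Scara5-low fibroblasts were deeper, with medians of 83466.5, 80843.5, 121765 and 115384 reads. The reads were not reduced to molecules, so intervals cover counting error only.

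Dermal fibroblasts fall into layers and niches. Those around vessels and in the deep fascia carry Pi16, Dpp4, Cd34 and related genes, are often called universal or adventitial fibroblasts, and can give rise to other fibroblast states after injury. Inflamed fibroblasts instead produce chemokines for neutrophils, eosinophils and monocytes, acute-phase proteins and wound matrix in response to cytokines such as IL-1, TNF, interferons, IL-4 and IL-13. SCARA5 itself takes up ferritin and has been linked to fibroblasts and fat cell precursors.

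The working name resting-type rests on 5 marker genes, of which Scara5 and Pdgfra also chose the cells, so these 2 are no check. Scara5 summed to 525 and 575 CPM in the WT day 3 and day 5 Scara5-positive fibroblasts, to 362 CPM in those of Ccr2-/- day 5 and to the lowest level in those of Ccr2-/- day 3, against 1.87 to 3.22 CPM in the Scara5-low ones. Of the 1752 fibroblasts, 64.0% had no read of Scara5. Near the limit, 42 fibroblasts had 25 to under 50 CPM and 43 had 50 to under 75 CPM, with 48.7 CPM as the highest value outside and 53.0 CPM as the lowest inside. The median Scara5-positive cell had 327 CPM (quartiles 144 and 665), and the pool medians were 376, 451, 227 and 309 CPM. Pdgfra had 525 to 583 CPM in the Scara5-positive and 585 to 626 CPM in the Scara5-low pools, so the ranges lay next to each other without overlap.

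The other markers of the label were known before the comparison, so their values are a description. Opcml, a cell adhesion molecule, had 44.4, 77.8, 61.7 and 56.8 CPM in Scara5-positive cells and 21.3, 40.6, 16.1 and 15.4 CPM in Scara5-low cells. Abca8a, a lipid transporter, had 135, 113, 143 and 97.7 CPM against 52.4, 76.2, 22.5 and 22.7 CPM. Myoc, which codes for the secreted glycoprotein myocilin, had 399, 694, 427 and 355 CPM against 218, 581, 98.2 and 79.8 CPM. All 3 were higher in the Scara5-positive cells of every pool, and the gap in Myoc was narrowest in WT day 5. With each cell thinned to 20000 reads, which left out 16 of the 400 cells and 100 of the 1123 Scara5-low cells, 38.5% of Scara5-positive cells had a Myoc read (95% exact binomial interval 33.6 to 43.6), 29.8% (27.0 to 32.7) of Scara5-low cells and 4.76% (3.57 to 6.21) of leukocytes. Before thinning the shares were 45.8%, 40.9% and 6.16%. Here and below, unthinned shares also count the cells under 20000 reads, so they are not shares of the same cells. The unthinned median depths of the thinned Scara5-positive cells, Scara5-low cells and leukocytes were 81220, 111431 and 44078 reads. In WT the thinned Myoc shares of the classes did not differ in this direction, at 36.3% and 45.0% of Scara5-positive and 39.0% and 52.0% of Scara5-low cells on day 3 and day 5. All pools came from inflamed skin, so the word resting was not checked against skin at rest.

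Scara5-positive cells made up a larger share of the fibroblasts in the WT pools than in the Ccr2-/- pools. The shares were 33.1% (27.7 to 38.8), 42.7% (36.4 to 49.2), 16.6% (13.6 to 20) and 24.8% (20.8 to 29.1) of fibroblasts, with 95% exact binomial intervals. Neither Ccr2-/- pool overlapped with a WT pool in its value, and within each genotype the day 5 pool had the higher share. Averaged over days, 37.9% of WT and 20.7% of Ccr2-/- fibroblasts were Scara5-positive, and Ccr2-/- minus WT was -17.2 points. An exact two-sided permutation test over the 4 pools gave p = 0.33, the smallest value its 6 splits allow. Of all cells kept, the shares were 6.01%, 9.44%, 4.05% and 4.28%, and Ccr2-/- minus WT was -3.56 points (exact permutation p = 0.33). Among cells with at least 20000 reads the difference was -17.7 points of fibroblasts and -2.31 points of all cells, where the pools overlapped (exact permutation p = 0.67). The Scara5 limit was still applied to the full reads of these cells, so the shares were not compared at equal depth. The Scara5-positive cells themselves numbered 92 to 108 in each pool, while the Scara5-low fibroblasts numbered 138 to 196 in WT and 328 to 461 in Ccr2-/-. A share among recovered cells does not tell fewer Scara5-positive cells from more of the others.

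**Figure D1:**
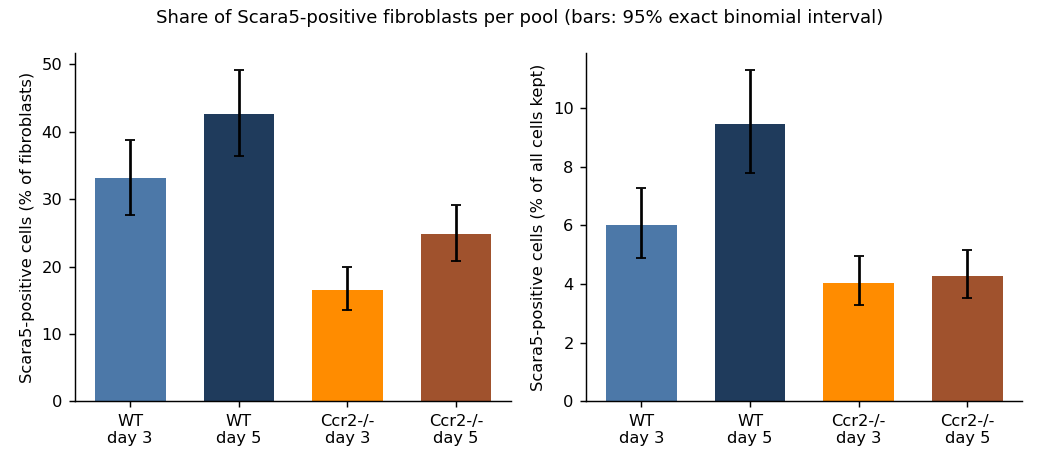
Scara5-positive cells per pool as a percentage of fibroblasts within the other limits (left) and of all cells kept (right), each bar 1 pool with its 95% exact binomial interval. The bars of WT day 3 and WT day 5 (33.1% and 42.7% of fibroblasts) stand above those of Ccr2-/- day 3 and day 5 (16.6% and 24.8%).

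Scara5-positive fibroblasts had more reads of adventitial-type and complement genes and of several genes of Wnt, BMP and growth factor control than Scara5-low fibroblasts of the same pools, and fewer reads of chemokine, IL-1 and NF-kB response, type 2 response, interferon response, and glycolysis and hypoxia genes. The comparison used the summed reads of both classes in the 4 pools, with the pool as a block, in edgeR's quasi-likelihood test with Benjamini-Hochberg adjustment over 16673 genes. It called 663 genes higher (3.98% of all genes tested) and 601 lower (3.6%), or 7.58% in either direction, at an adjusted p under 0.05, with a median log2 fold change of -0.04 over all genes. Because the classes were split by Scara5 reads in the same cells, the test says which genes varied with Scara5 in the same way in the 4 pools, and does not give independent evidence of 2 separate populations. Of the 72 genes chosen by rule that passed, 27 also passed in each of the 15 alternatives. In 4.88% of all genes every Scara5-positive pool was above every Scara5-low pool, and in 8.5% every one was below. Of these 72 calls, 33 were lost without WT day 3, 9 without WT day 5, 37 without Ccr2-/- day 3 and 17 without Ccr2-/- day 5. The total was lowest without the Ccr2-/- day 3 pool (254 genes), and it was 468 without WT day 3, 522 without Ccr2-/- day 5 and 993 without WT day 5.

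**Figure D2:**
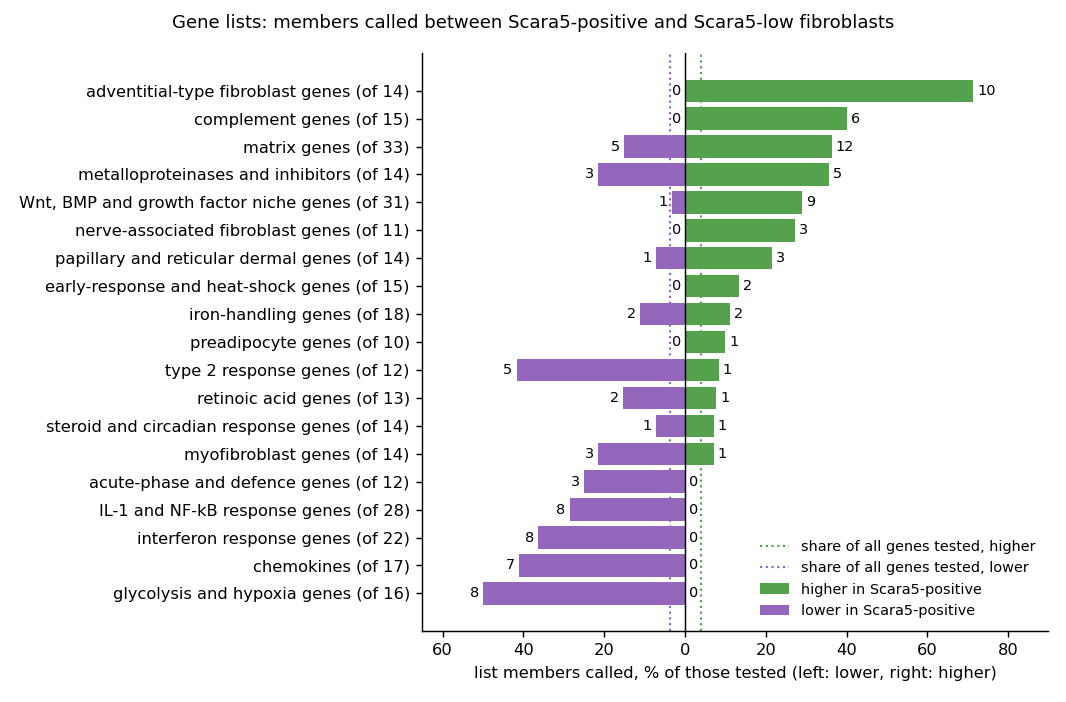
Members of each gene list called higher (green, right) or lower (purple, left) in Scara5-positive than in Scara5-low fibroblasts, as a percentage of the members tested. Numbers beside the bars are counts of genes, and dotted lines mark the shares of all genes tested (3.98% higher, 3.6% lower). Adventitial-type genes lead on the right with 10 of 14, and glycolysis and hypoxia genes on the left with 8 of 16.

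Of 14 adventitial-type genes, 10 were higher and none lower, with a median log2 fold change of 1.12. Dpp4, a membrane peptidase, had 57.2, 81.0, 46.1 and 71.0 CPM in Scara5-positive cells and 20.1, 27.9, 16.0 and 16.8 CPM in Scara5-low cells (log2 1.71 ± 0.16 SE, edgeR adjusted p = 0.00323). Here and below, the SE is the one implied by the quasi-likelihood F statistic, not a standard error over replicate pools. Cd55, which codes for a complement-inhibiting membrane protein, had 218, 451, 232 and 335 CPM against 90.1, 146, 47.0 and 61.5 CPM (log2 1.96 ± 0.21, edgeR adjusted p = 0.00428). Sema3c, a secreted guidance molecule, had 154, 233, 170 and 201 CPM against 57.7, 64.4, 35.5 and 48.9 CPM (log2 1.94 ± 0.15, edgeR adjusted p = 0.00203). For these 3 genes every Scara5-positive pool lay above every Scara5-low pool.

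Clec3b, the gene of tetranectin, was more abundant and moved less, with 777 to 958 CPM against 271 to 438 CPM (log2 1.33 ± 0.10). Cd248 had 409 to 451 CPM against 143 to 245 CPM (log2 1.25) and Cd34, a sialomucin, 1070 to 1460 CPM against 487 to 772 CPM (log2 0.99). Efhd1 was low in level, at 17.3 to 33.0 CPM against 1.27 to 11.2 CPM (log2 2.73). Pi16 had 887, 2010, 782 and 1760 CPM in Scara5-positive cells and 513, 582, 420 and 558 CPM in Scara5-low cells (log2 1.33 ± 0.18, edgeR adjusted p = 0.0086). The Scara5-positive pools of day 5 thus held more Pi16 reads than those of day 3 in both genotypes, whereas the Scara5-low pools lay close together. The remaining called members, Mfap5 and Col14a1, had edgeR adjusted p of 0.133 and 0.18 without Ccr2-/- day 3, and Ly6a (log2 0.22), Ackr3 (0.21), Has1 (0.42) and Anxa3 (0.48) did not pass. The number called was 7 to 11 of the list in the 15 alternatives. Among cells without any Ptprc read the adjusted p of Pi16 was 0.199, and without the Ccr2-/- day 3 pool that of Efhd1 was 0.0586. At 20000 reads per cell, 78.9% (74.5 to 82.9) of Scara5-positive cells had a Pi16 read, 60.2% (57.1 to 63.2) of Scara5-low cells and 25.5% (22.9 to 28.2) of leukocytes, so Pi16 marked no sharp border. Unthinned, these shares were 86.5%, 73.6% and 28.3%. For Dpp4 these shares were 27.9% (23.4 to 32.6), 11.7% (9.82 to 13.9) and 7.84% (6.3 to 9.62). Unthinned, with the cells under 20000 reads included, they were 35.2%, 16.9% and 4.91%.

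**Figure D3:**
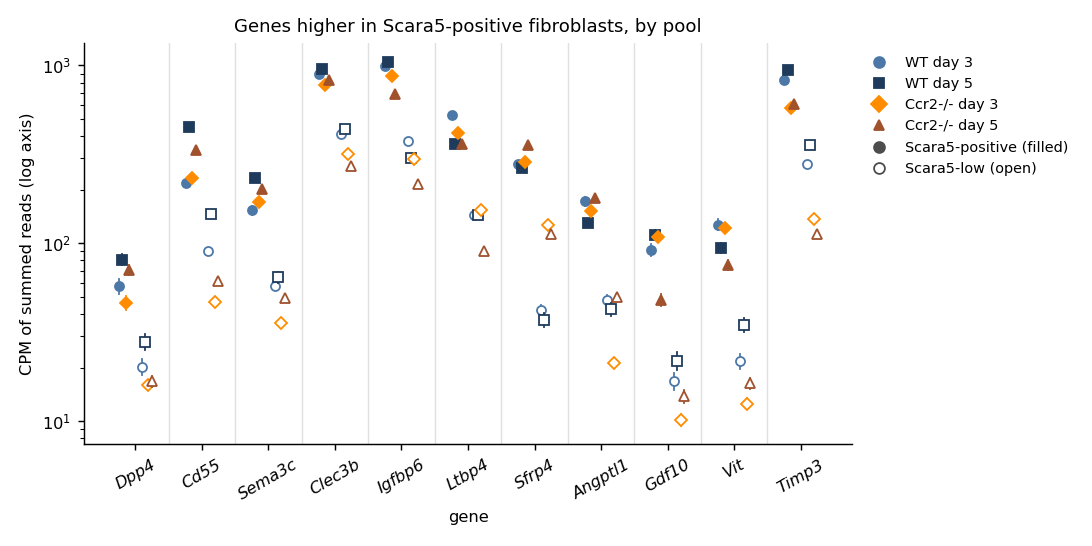
Summed reads of 11 genes in Scara5-positive (filled) and Scara5-low (open) fibroblasts, 1 symbol per pool, in CPM on a log axis, with 95% Poisson intervals where wider than the symbol. The filled symbols of each gene stand above the open symbols of the same pool.

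Genes of Wnt, BMP and growth factor control followed, with 9 of 31 higher and 1 lower (median log2 fold change 0.47). Igfbp6, which binds insulin-like growth factor II, had 987, 1040, 875 and 691 CPM in Scara5-positive cells and 378, 303, 299 and 214 CPM in Scara5-low cells (log2 1.65 ± 0.09, edgeR adjusted p = 0.000875). Ltbp4, which tethers latent TGF-beta to the matrix, had 524, 362, 418 and 363 CPM against 145, 144, 154 and 90.6 CPM (log2 1.70 ± 0.13). Sfrp4, a secreted Wnt antagonist, had 278, 264, 288 and 358 CPM against 42.2, 37.0, 126 and 113 CPM (log2 2.14 ± 0.27). The Scara5-positive pools did not overlap with the Scara5-low pools in these genes, and the Sfrp4 level of the Scara5-low cells was higher in the Ccr2-/- pools. Angptl1, an angiopoietin-like secreted protein, had 130 to 179 CPM against 21.1 to 50.0 CPM (log2 2.08). Wif1, another secreted Wnt inhibitor, was also called (log2 2.1), but 61.6% to 100% of its reads in each Scara5-positive pool came from a single cell, and it missed the threshold without WT day 3 (edgeR adjusted p = 0.0879) and without Ccr2-/- day 3 (0.0924). Ntf3, Gas6 and Igfbp4 were also called higher, and all 3 missed the threshold without Ccr2-/- day 3 (edgeR adjusted p 0.0928 to 0.171), and Angptl4, a lipase inhibitor, the member called lower (log2 -1.42).

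The largest differences outside the lists included further secreted and matrix proteins. Gdf10, a TGF-beta family ligand, had 91.7, 111, 108 and 47.9 CPM in Scara5-positive cells and 16.7, 21.8, 10.1 and 13.8 CPM in Scara5-low cells (log2 2.55 ± 0.25, edgeR adjusted p = 0.00362). Vit, the gene of the matrix protein vitrin, had 127, 93.8, 122 and 75.8 CPM against 21.7, 34.6, 12.5 and 16.3 CPM (log2 2.42 ± 0.28). Galnt15, a glycosyltransferase, had 156, 212, 107 and 104 CPM against 44.4, 69.6, 17.0 and 19.1 CPM (log2 2.18 ± 0.20). These differences were present in each pool and passed in each alternative. Tmem100 (log2 1.95) and Ppl, the gene of the junction protein periplakin (log2 1.93), passed with all pools but not without WT day 3, Ccr2-/- day 3 or Ccr2-/- day 5, with edgeR adjusted p of 0.0541, 0.09 and 0.0619 for Tmem100 and 0.0586, 0.0525 and 0.0572 for Ppl. Coch (log2 3.03 ± 0.64) rested on few cells. At 20000 reads per cell 3.65% (2.01 to 6.04) of Scara5-positive and 3.91% (2.81 to 5.29) of Scara5-low cells had a Coch read (unthinned 7.5% and 9.88%). The highest cell of each pool gave 41.9%, 74.8%, 92.8% and 53.3% of the Scara5-positive Coch reads. Without WT day 3, WT day 5 or Ccr2-/- day 3 its adjusted p was 0.0613, 0.0706 and 0.115.

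Of 15 complement genes, 6 were higher and none lower (median log2 fold change 0.50). Serping1, the gene of C1 inhibitor, had 1970 to 2230 CPM against 1180 to 1630 CPM (log2 0.71). C7, a component of the membrane attack complex, had 38.8, 37.0, 25.0 and 15.4 CPM against 1.83, 3.99, 7.31 and 1.92 CPM (log2 3.10 ± 0.41, edgeR adjusted p = 0.00766). It stood out by its pattern over cells, since 13.5% (10.3 to 17.4) of thinned Scara5-positive cells, 2.93% (1.99 to 4.16) of Scara5-low cells and 0.28% (0.0578 to 0.816) of leukocytes had a read (unthinned 16.2%, 4.81% and 0.362%). Among cells without any Ptprc read, C7 had an edgeR adjusted p of 0.0891. Clu, the gene of the chaperone clusterin, also passed (log2 1.82) at 5.85 to 29.5 CPM, with an adjusted p of 0.0819 without Ccr2-/- day 3. C1s1, a classical pathway protease (log2 0.62), lost its call without each of the 4 pools (edgeR adjusted p 0.0596 to 0.127). Of the called members, Cd55 and Serping1 are known as inhibitors of complement.

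Matrix genes split, with 12 of 33 higher and 5 lower, and so did metalloproteinases and their inhibitors, with 5 of 14 higher and 3 lower. Timp3, a matrix-bound metalloproteinase inhibitor, had 823, 940, 574 and 610 CPM in Scara5-positive cells and 279, 359, 136 and 113 CPM in Scara5-low cells (log2 1.91 ± 0.18, edgeR adjusted p = 0.00354). Timp1, the inducible member of the family, went the other way with 354, 483, 788 and 1050 CPM against 2050, 1550, 3500 and 2900 CPM (log2 -1.91 ± 0.17, edgeR adjusted p = 0.00323). Timp2 was higher in Scara5-positive cells at 2090 to 3710 CPM against 1100 to 1900 CPM (log2 1.0 ± 0.053). The inhibitors thus differed in direction, and none of the 3 overlapped between the classes. Mmp19 was lower (log2 -1.50), though not without WT day 3, Ccr2-/- day 3 or Ccr2-/- day 5 (edgeR adjusted p = 0.0541, 0.0731 and 0.0685), while Mmp2 was higher (log2 0.56), with an edgeR adjusted p of 0.0508 without Ccr2-/- day 3.

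Col15a1, a collagen of basement membrane zones, had 249, 141, 116 and 80.6 CPM against 65.4, 73.8, 33.4 and 32.8 CPM (log2 1.54 ± 0.17), and fibronectin (Fn1) 2840 to 3560 CPM against 1470 to 2080 CPM (log2 0.87). Tenascin C (Tnc), a matrix protein of wounds, had 285, 215, 86.8 and 434 CPM in Scara5-positive cells and 1310, 2110, 1530 and 2390 CPM in Scara5-low cells (log2 -2.97 ± 0.31, edgeR adjusted p = 0.00407). Periostin (Postn), a matrix protein of type 2 inflammation and repair, had 2090, 2700, 1840 and 1720 CPM against 4430, 5230, 5900 and 5070 CPM (log2 -1.27 ± 0.12). The collagen crosslinking enzyme gene Lox had 357 to 577 CPM against 838 to 1310 CPM (log2 -1.12) and Col12a1, a fibril-associated collagen, 46.5 to 137 CPM against 247 to 569 CPM (log2 -1.94; without any Ptprc read it did not pass). Tnc, Postn and Thbs1 were the 3 of 14 myofibroblast genes called lower, while Fap, a membrane protease, was the member called higher (log2 0.96). Thbs1 (log2 -1.48) did not pass without WT day 3, Ccr2-/- day 3 or Ccr2-/- day 5 (edgeR adjusted p = 0.0587, 0.138 and 0.083).

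Chemokine reads were lower in Scara5-positive fibroblasts: 7 of 17 genes passed, all of them lower, and the median log2 fold change was -0.84. Cxcl5, a ligand of the neutrophil receptor CXCR2, lies at chr5:90759360-90761624 (GRCm38, plus strand) and had 283, 147, 266 and 493 CPM in Scara5-positive cells and 720, 541, 2140 and 2490 CPM in Scara5-low cells (log2 -2.1 ± 0.24, edgeR adjusted p = 0.00529). In the Scara5-positive pools 48.9%, 73.6%, 34.0% and 19.1% of these reads came from a single cell. At 20000 reads per cell 48.4% (43.3 to 53.6) of Scara5-positive cells and 68.0% (65.1 to 70.9) of Scara5-low cells had a Cxcl5 read, beside 41.3% (38.3 to 44.3) of leukocytes (unthinned 80.8%, 85.2% and 46.2%). A Cxcl5 read in a cell was thus common in all 3 sets of cells, and the amount differed more than the share.

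Ccl2, Ccl7, Ccl11 and Ccl8 are neighbours on chromosome 11, between positions 82035571 and 82116799 (GRCm38), and all 4 were called lower. Ccl2, the main ligand of CCR2, had 816, 1210, 1560 and 1390 CPM in Scara5-positive cells and 2260, 2140, 4330 and 2910 CPM in Scara5-low cells (log2 -1.16 ± 0.12, edgeR adjusted p = 0.00408). Ccl7, also a CCR2 ligand, had 821, 1120, 1540 and 1230 CPM against 2270, 1820, 3810 and 2490 CPM (log2 -1.08 ± 0.12). Ccl11, the eosinophil chemokine eotaxin, had 430, 399, 786 and 289 CPM against 745, 650, 2770 and 1600 CPM (log2 -1.40 ± 0.28, edgeR adjusted p = 0.0265). Scara5-positive cells thus held Ccl2 and Ccl7 reads in every pool, and the Scara5-low cells held more of all 3. Among cells without any Ptprc read Ccl2 and Ccl7 had edgeR adjusted p of 0.0597 and 0.0558. Ccl8 (log2 -1.38) and Ccl19, a ligand of CCR7 on T cells and dendritic cells (log2 -1.99), had 276 to 453 CPM against 588 to 1480 CPM and 36.3 to 53.5 CPM against 68.5 to 338 CPM. Ccl11, Ccl8 and Ccl19 did not pass without WT day 3 (edgeR adjusted p = 0.0533, 0.0991 and 0.067) or without Ccr2-/- day 3 (0.131, 0.127 and 0.0547), Ccl8 also not without Ccr2-/- day 5 (0.0522), and Cxcl12 (log2 -0.80) not without Ccr2-/- day 3 (0.0517). The list kept 3 to 11 calls in the alternatives, none of them higher.

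**Figure D4:**
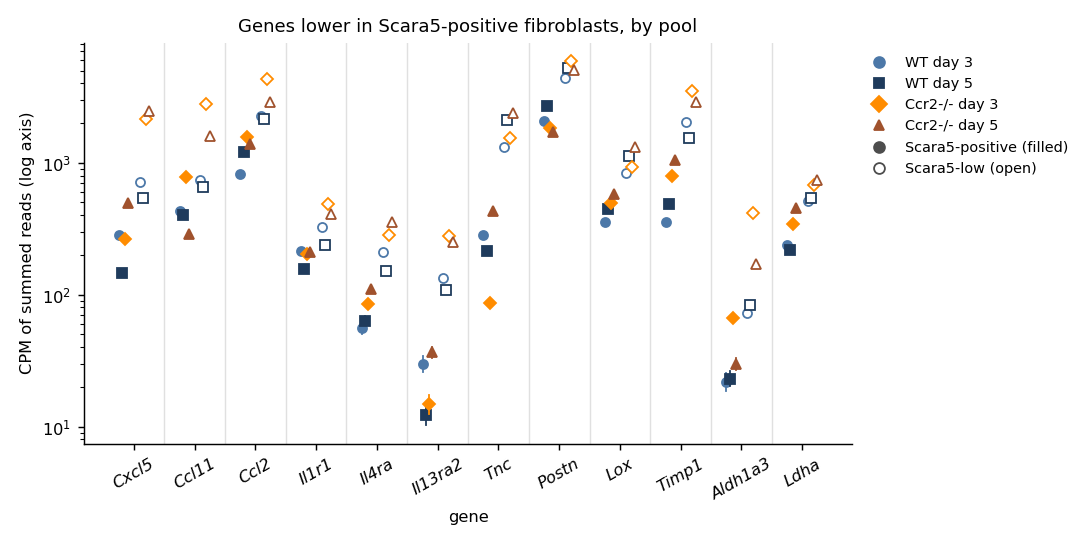
Summed reads of 12 genes in Scara5-positive (filled) and Scara5-low (open) fibroblasts, 1 symbol per pool, in CPM on a log axis, with 95% Poisson intervals where wider than the symbol. The open symbols stand above the filled symbols of the same pool, and for Cxcl5 and Ccl11 the open symbols of the Ccr2-/- pools stand highest (2140 and 2490 CPM, 2770 and 1600 CPM).

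Of 28 IL-1 and NF-kB response genes, 8 were lower and none higher (median log2 fold change -0.43). Il1r1, the receptor that transmits IL-1, had 216, 156, 204 and 209 CPM in Scara5-positive cells and 326, 238, 483 and 406 CPM in Scara5-low cells (log2 -0.81 ± 0.12, edgeR adjusted p = 0.0107), so it was read in both classes. It did not pass among cells without any Ptprc read (edgeR adjusted p = 0.125). Sod2, the mitochondrial superoxide dismutase, had 120 to 227 CPM against 167 to 596 CPM (log2 -1.04). Il6, Cebpb, Ptges and Tnfrsf1a passed with log2 fold changes of -0.39 to -0.48, and none of the 4 passed without WT day 3 or without Ccr2-/- day 3 (edgeR adjusted p 0.0598 to 0.169). Il1rl1, the IL-33 receptor, was also called (log2 -1.34), but in the WT Scara5-positive pools 89.5% and 92.2% of its reads came from a single cell, and it passed without WT day 3 but not without any 1 of the other pools (edgeR adjusted p 0.0637 to 0.123). Without WT day 3 or without Ccr2-/- day 3, 2 and 1 of the 8 calls were left, and Sod2 had edgeR adjusted p of 0.0745 and 0.0556. Of 12 acute-phase genes, 3 were lower (Chil1, Serpina3g and Ptx3) and none higher. Saa3, a serum amyloid A gene, had 1890, 1310, 823 and 10100 CPM against 2080, 1150, 4230 and 8010 CPM (log2 -0.40 ± 0.42, edgeR adjusted p = 0.645). A single cell gave 91.8% of the Saa3 reads in the Scara5-positive pool of WT day 3. The neutrophil gelatinase-associated lipocalin gene Lcn2 (log2 -0.47, edgeR adjusted p = 0.593) and haptoglobin, Hp (log2 0.07, 0.964), did not pass. Lcn2 was lower among cells without any Ptprc read (log2 -1.98, edgeR adjusted p = 0.0237), and Saa3 with cells thinned to 20000 reads (log2 -0.88, edgeR adjusted p = 0.043). Without any Ptprc read Saa3 had log2 -2.51 and Hp log2 -1.62 (edgeR adjusted p = 0.0563 and 0.0539). With a hashtag ratio of 10, Hp had log2 -2.66 (edgeR adjusted p = 0.0516), so its value near 0 with all cells was not stable. Chil1 and Ptx3 missed the threshold without WT day 3 (edgeR adjusted p = 0.055 and 0.0775) or Ccr2-/- day 3 (0.0556 and 0.105).

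Of 12 type 2 response genes tested, 5 were lower and 1 higher. Il4ra, the shared receptor chain of IL-4 and IL-13, had 56.1, 63.3, 84.8 and 110 CPM in Scara5-positive cells and 209, 151, 283 and 357 CPM in Scara5-low cells (log2 -1.60 ± 0.12, edgeR adjusted p = 0.002). Il13ra2, the decoy receptor of IL-13, had 29.8, 12.3, 14.8 and 36.5 CPM against 133, 108, 280 and 252 CPM (log2 -3.02 ± 0.31, edgeR adjusted p = 0.00394). At 20000 reads per cell 10.4% (7.55 to 13.9) of Scara5-positive and 40.5% (37.4 to 43.5) of Scara5-low cells had an Il13ra2 read, beside 4.3% (3.16 to 5.69) of leukocytes (unthinned 22.2%, 49.5% and 6.52%). Both receptor genes passed in each alternative. Cish, a feedback inhibitor of cytokine signalling (log2 -1.10), and Socs1 (log2 -0.41) were lower, and Ptgs1, a prostaglandin synthase (log2 1.65), was higher. None of these 3 passed without WT day 3 (edgeR adjusted p = 0.0643, 0.149 and 0.119) or Ccr2-/- day 3 (0.0875, 0.17 and 0.0845). Csf2rb, the receptor chain shared by IL-3, IL-5 and GM-CSF, was among the largest falls outside the lists with 6.96 to 13.1 CPM against 18.1 to 236 CPM (log2 -3.27). It did not pass without WT day 3 or Ccr2-/- day 3 (edgeR adjusted p = 0.0517 and 0.0512). Reg3g, an antimicrobial lectin (log2 -3.44), Mcoln2 (log2 -2.19) and Cyp7b1, an oxysterol hydroxylase (log2 -2.15), were lower with all pools and missed the threshold without the same pools (0.0541 to 0.105).

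Of 22 interferon response genes, 8 were lower and none higher, with a median log2 fold change of -0.95. Isg15, a ubiquitin-like protein, had 8.19, 7.97, 11.7 and 4.75 CPM in Scara5-positive cells and 81.8, 13.5, 37.2 and 22.8 CPM in Scara5-low cells (log2 -1.95 ± 0.38, edgeR adjusted p = 0.0263). Ifit1, which binds viral RNA, had 26.6, 6.56, 9.95 and 4.26 CPM against 85.6, 36.3, 17.8 and 12.4 CPM (log2 -1.58 ± 0.26), and Iigp1, an interferon-induced GTPase, 58.8, 15.1, 30.2 and 11.7 CPM against 165, 43.9, 234 and 202 CPM (log2 -2.46 ± 0.42). These genes were lower in each pool, and their level also varied between pools. The set depended on single pools. In each case 1 lower call, against 8 with all pools, was left without WT day 3, without Ccr2-/- day 3 or among cells without a Ptprc read.

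Promoters of 4 genes of these lower groups are shown, each with a motif of the response after which its group is named. They were copied from RefSeq (GRCm38.p6) as 250 bases before to 50 bases after the start, 5′ to 3′ on the gene's strand. Capitals in Isg15 (chr4:156200769-156201068, minus strand) and Ifit1 (chr19:34640639-34640938, plus strand) mark GAAA, any 2 bases and GAAA, a core of the interferon-stimulated response element, on either strand, with 3 overlapping matches in Isg15 and 2 in Ifit1. Capitals in Il1r1 (the second of 2 starts, chr1:40266336-40266635, plus strand) and Sod2 (chr17:13007589-13007888, plus strand) mark the NF-kB consensus.
Isg15: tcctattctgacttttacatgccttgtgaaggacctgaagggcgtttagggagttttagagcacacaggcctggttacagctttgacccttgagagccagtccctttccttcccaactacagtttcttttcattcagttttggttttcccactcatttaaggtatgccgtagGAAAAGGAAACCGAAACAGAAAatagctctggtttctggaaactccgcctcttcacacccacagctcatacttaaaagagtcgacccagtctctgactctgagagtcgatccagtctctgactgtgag
Ifit1: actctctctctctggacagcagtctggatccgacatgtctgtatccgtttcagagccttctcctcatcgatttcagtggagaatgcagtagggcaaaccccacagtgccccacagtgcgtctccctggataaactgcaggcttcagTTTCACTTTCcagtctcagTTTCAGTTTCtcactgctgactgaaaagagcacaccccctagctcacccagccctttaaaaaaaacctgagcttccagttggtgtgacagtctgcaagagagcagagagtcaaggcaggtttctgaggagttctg
Il1r1: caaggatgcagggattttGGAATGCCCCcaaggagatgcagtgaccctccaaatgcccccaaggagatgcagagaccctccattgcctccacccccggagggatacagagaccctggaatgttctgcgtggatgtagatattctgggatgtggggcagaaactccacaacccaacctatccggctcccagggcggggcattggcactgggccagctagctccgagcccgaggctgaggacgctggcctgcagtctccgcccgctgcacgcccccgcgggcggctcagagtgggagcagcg
Sod2: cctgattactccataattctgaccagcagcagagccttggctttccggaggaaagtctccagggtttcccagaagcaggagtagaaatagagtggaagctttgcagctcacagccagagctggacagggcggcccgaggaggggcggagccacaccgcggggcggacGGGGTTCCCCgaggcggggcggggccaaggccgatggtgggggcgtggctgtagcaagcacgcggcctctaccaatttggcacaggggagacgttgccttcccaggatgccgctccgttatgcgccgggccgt

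The first of these motifs stood in 3.44% of all 32851 promoters of this length and in a promoter of 3.99% of the 27025 genes, and it was in a promoter of 5 of the 7 called interferon response genes that had an entry (Ifit1, Ifit3, Isg15, Igtp and Bst2) and of 10 of 18 members in all. The NF-kB consensus stood in 8.46% of all promoters and in a promoter of 9.55% of the genes, in 4 of the 8 called IL-1 and NF-kB response genes (Il1r1, Sod2, Il6 and Steap4) and in 10 of 22 members in all. Of the adventitial-type genes with an entry, 1 of 8 held the first motif (Dpp4) and none the NF-kB consensus. Members were listed for their known regulation, so these counts describe the lists and not the Scara5-positive cells.

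Glycolysis and hypoxia genes were lower in 8 of 16 cases and higher in none (median log2 fold change -0.61). Ldha, the lactate dehydrogenase A gene, had 239, 217, 344 and 454 CPM in Scara5-positive cells and 514, 544, 682 and 744 CPM in Scara5-low cells (log2 -0.99 ± 0.11, edgeR adjusted p = 0.00518). Gapdh had 301 to 439 CPM against 563 to 799 CPM (log2 -0.86) and Pgk1, phosphoglycerate kinase, 82.7 to 149 CPM against 187 to 268 CPM (log2 -0.91). None of these 3 overlapped between the classes, and they passed in each alternative. Eno1 and Pgam1 missed the threshold without WT day 3 (edgeR adjusted p = 0.0709 and 0.0534) or Ccr2-/- day 3 (0.0871 and 0.0648). Aldoa missed it without Ccr2-/- day 3 (0.0658), and Pkm without WT day 3 (0.0748) or Ccr2-/- day 5 (0.0659). Bnip3, a mitophagy receptor induced by hypoxia (log2 -0.80), lost its call whichever of the 4 pools was left out (edgeR adjusted p 0.067 to 0.126).

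Retinoid genes went in both directions. Aldh1a3, which makes retinoic acid, had 21.8, 23.1, 66.6 and 29.7 CPM in Scara5-positive cells and 72.9, 83.0, 417 and 171 CPM in Scara5-low cells (log2 -2.16 ± 0.17, edgeR adjusted p = 0.00217), with 48.0% to 69.0% of the Scara5-positive reads from a single cell of each pool. Cyp26b1, which degrades retinoic acid, was lower (log2 -0.96) and Aldh1a1, another synthesis enzyme, higher (log2 0.56), and both lost their calls without Ccr2-/- day 3 (edgeR adjusted p = 0.167 and 0.114). Of 18 iron-handling genes, apart from Scara5, 2 were higher and 2 lower. These were Steap3, a ferrireductase (log2 0.67), and ceruloplasmin, Cp (log2 0.65), against the zinc and iron importer Slc39a14 (log2 -1.01) and Steap4 (log2 -0.56), and none of the 4 passed without Ccr2-/- day 3 (edgeR adjusted p 0.0583 to 0.111). Reads of a ferritin receptor were thus not accompanied by a common direction of iron genes.

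Lists of other dermal fibroblast states gave fewer calls. Of 14 papillary and reticular genes 3 were higher (Mgp, Gpx3 and Apcdd1) and 1 lower (Pdpn), of 11 nerve-associated genes 3 were higher (Abca9, Cldn1 and Osr2), and of 10 preadipocyte genes 1 was higher. None of the nerve-associated genes passed without WT day 3, Ccr2-/- day 3 or Ccr2-/- day 5. Mgp, an inhibitor of calcification, had 705, 960, 548 and 343 CPM in Scara5-positive cells and 194 to 225 CPM in Scara5-low cells (log2 1.53 ± 0.20, edgeR adjusted p = 0.00744), with 0.0503 without Ccr2-/- day 3. Gpx3, Apcdd1 and Pdpn each lost their call without WT day 3 (edgeR adjusted p 0.067, 0.121 and 0.0651), and Apcdd1 and Pdpn also without Ccr2-/- day 3 (0.113 and 0.103). Apod, a lipocalin of lipid transport, was the preadipocyte gene (log2 0.93), at 8990, 4630, 5870 and 3530 CPM against 2310 to 3880 CPM, and it did not pass among cells without any Ptprc read (edgeR adjusted p = 0.455). The highest cell of each pool held 18.3% to 42.7% of the Scara5-positive reads, yet at 20000 reads per cell 97.1% (94.9 to 98.6) of Scara5-positive and 95.9% (94.5 to 97.0) of Scara5-low cells had an Apod read (unthinned 98.2% and 97.4%). Pparg and Fabp4, also members of the preadipocyte list, were not called. Of 15 early-response and heat-shock genes, 2 were higher (Egr1 and Hspa1b), and Tsc22d3, a glucocorticoid-induced gene, was higher (log2 1.12) while the clock gene Nr1d1 was lower (log2 -1.08). All 4 lost their calls without Ccr2-/- day 3 (edgeR adjusted p 0.0505 to 0.129).

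Markers of other cell types were at low levels in both classes, and 0 of their 45 tests by edgeR passed in either direction. The summed macrophage and monocyte markers had 318, 190, 83.4 and 80.2 CPM in Scara5-positive cells and 114, 128, 67.3 and 82.3 CPM in Scara5-low cells, and all 8 members had reads in each pool. In the Scara5-positive cells of WT day 3, 75.1% of these reads came from a single cell, and 30.7% in WT day 5. Muscle and cartilage markers had 153, 28.0, 31.7 and 185 CPM against 28.1 to 52.5 CPM, again with 41.8% to 50.8% from a single cell. Neutrophil markers had 41.2 to 51.2 CPM, keratinocyte markers 43.5 to 77.0 CPM, endothelial markers 7.04 to 34.1 CPM, mural markers 10.3 to 31.8 CPM, mast cell and basophil markers 14.9 to 18.2 CPM, lymphocyte markers 4.75 to 14.9 CPM and Schwann cell and melanocyte markers 4.0 to 18.0 CPM in Scara5-positive cells. In Scara5-low cells of the Ccr2-/- pools, mast cell and basophil markers reached 48.7 and 42.4 CPM, with 66.6% and 53.9% from a single cell. Neutrophil markers had 129 CPM in the Scara5-low cells of Ccr2-/- day 5, with 13.1% from a single cell, against 47.9 to 50.3 CPM in the other Scara5-low pools. Their part in the results was not tested.

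Reads of the marker genes met in some Scara5-positive cells and not in others. Among the 384 pooled cells with at least 20000 reads, thinned to that depth, 118 had reads of both Pi16 and Myoc, 185 of Pi16 alone, 30 of Myoc alone and 51 of neither. Of the 52 cells with C7 reads, 82.7% had Pi16 reads and 23.1% Myoc reads, beside 78.9% and 38.5% of all 384 cells. Sfrp4 and Pi16 were read together in 144 cells, Pi16 alone in 159, Sfrp4 alone in 22. Cxcl5 and Ccl11 reads met in 127 cells, with 59 for Cxcl5 alone and 120 for Ccl11 alone. These counts are a description, since a read can be missed at this depth.

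Between the genotypes, no gene passed in the Scara5-positive fibroblasts. edgeR's quasi-likelihood test on the 4 sums, with day and genotype in the model, called 0 of 14726 genes (0.0% in each direction), with 1147 genes (7.79%) at an unadjusted p under 0.05, while DESeq2 called 32 genes higher and 27 lower in Ccr2-/-. The genes below were picked by the size of their difference and are a description. With 2 pools against 2 and 1 residual degree of freedom, values that do not overlap between genotypes were common: 18.7% of all genes tested were higher and 19.7% lower in both Ccr2-/- pools than in both WT pools.

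Aldh1a2, an enzyme of retinoic acid synthesis, had 8.48, 32.4, 57.9 and 122 CPM (log2 2.32 ± 0.28, edgeR adjusted p = 0.23). Ecscr, a small surface protein first described in endothelium, had 15.1, 27.8, 94.0 and 92.7 CPM (log2 2.18 ± 0.28, edgeR adjusted p = 0.264). Il33, an alarmin cytokine that drives type 2 responses, had 188, 153, 456 and 360 CPM (log2 1.27 ± 0.14, edgeR adjusted p = 0.195). In all 3 both Ccr2-/- pools were above both WT pools. The Scara5-low fibroblasts differed in the same direction, by log2 1.6, 0.85 and 0.48, and by 0.94 for Steap4, without passing. Steap4, a metalloreductase induced by inflammation, had 212, 119, 380 and 433 CPM (log2 1.36), and Chl1, Spsb1, Nnmt, Srgn and Tm4sf1 had log2 differences of 1.27 to 1.73 in the same direction, none of them passing.

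Angptl7, a secreted angiopoietin-like protein, had 174, 162, 22.4 and 30.3 CPM (log2 -2.67 ± 0.22, edgeR adjusted p = 0.103), and 26.8% to 55.8% of its reads came from a single cell of each pool. Aldh3a1, an aldehyde dehydrogenase of barrier tissues, had 221, 148, 68.7 and 60.4 CPM (log2 -1.47 ± 0.19, edgeR adjusted p = 0.264), and Penk, the enkephalin precursor, 180, 200, 102 and 75.3 CPM (log2 -1.10). Here both WT pools were above both Ccr2-/- pools. In Scara5-low fibroblasts the log2 differences of Angptl7, Aldh3a1 and Penk were -1.23, -1.5 and -1.44, also without passing. Cd74, a gene of antigen-presenting cells, had 128, 77.1, 18.3 and 13.8 CPM, but 81.8% and 60.6% of the WT reads came from a single cell, and the summed macrophage and monocyte markers were higher in the same pools. Of the 8 genes of that list, 7 had a log2 difference below 0 (median -1.61), and Ccr2 itself had 47.7, 6.86, 2.87 and 1.15 CPM in Scara5-positive cells. Their part in the genotype values was not tested. Leaving out 1 pool, with genotype alone in the model, sets 1 pool against 2, so the lone pool is assumed to vary like the other genotype, whose pools are from different days. This gave 0 called genes without WT day 3 or without Ccr2-/- day 5, 13 without WT day 5 and 12 without Ccr2-/- day 3, with Angptl7 among both the 13 and the 12 (edgeR adjusted p = 0.0291 and 0.0129).

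The study's interest in fibroblasts lay with Il1r1 and Cxcl5. By quantitative PCR of sorted fibroblasts it found a genotype difference in Cxcl5, which an antibody against IL-1α lowered in Ccr2-/- mice. CXCL5 protein in ear homogenates also differed between genotypes. Those measures had replicate mice and covered sorted fibroblasts or whole ear skin. The values below cover only the Scara5-positive part, so they do not test that finding. In Scara5-positive cells Il1r1 had 216, 156, 204 and 209 CPM (log2 0.19 ± 0.18 for Ccr2-/- over WT, edgeR adjusted p = 0.855) and Cxcl5 283, 147, 266 and 493 CPM (log2 0.84 ± 0.41, edgeR adjusted p = 0.687). The summed Cxcl5 values of the genotypes overlapped. A single cell gave a larger part of these Cxcl5 reads in each WT pool than in either Ccr2-/- pool, as given above. Among thinned Scara5-positive cells, 47.3%, 42.0%, 48.3% and 55.8% had a Cxcl5 read. By value both Ccr2-/- shares lay above both WT shares, while their exact binomial intervals overlapped. By summed reads, Saa3 stood out in Ccr2-/- day 5 at 10100 CPM against 823 to 1890 CPM in the other Scara5-positive pools (log2 0.89 ± 1.0 between genotypes, edgeR adjusted p = 0.888). The share of cells with a Saa3 read did not stand out. At 20000 reads per cell it was 58.4% to 62.5% in the 4 Scara5-positive pools, with overlapping intervals, beside 58.8% of leukocytes. Lcn2 (57.4, 15.3, 41.9 and 230 CPM) and Hp (79.9, 111, 26.9 and 277 CPM) were likewise highest in Ccr2-/- day 5 by summed reads. Of the 12 acute-phase genes tested, 9 had a log2 difference above 0 (median 0.71), beside 7362 of 14726 genes in all, and none passed. Such a lean was not particular to this list. Only 1 of 15 early-response and heat-shock genes (median -0.34) and 3 of 22 interferon response genes (median -0.41) lay above 0.

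Between the days, edgeR's quasi-likelihood test in the same model called 0 of 14726 genes (0.0%), with 744 (5.05%) at an unadjusted p under 0.05 and 15 called by DESeq2. Pi16 had the smallest p of the named genes, with the values given above (log2 1.2 ± 0.11 for day 5 over day 3, edgeR adjusted p = 0.321), and 13 of 14 adventitial-type genes had a log2 difference above 0 (median 0.43), beside 7495 of 14726 genes in all (median 0.01). Other lists leaned about as far by count. Above 0 were 15 of 16 glycolysis and hypoxia genes (median 0.22) and only 2 of 22 interferon response genes (median -0.29). Cxcl2, a CXCR2 ligand, went from 76.6 to 291 CPM among WT cells and from 223 to 400 CPM among Ccr2-/- cells (log2 1.40 ± 0.27, edgeR adjusted p = 0.943). Ptgs2, the inducible prostaglandin synthase, went from 32.6 to 114 CPM and from 82.3 to 148 CPM (log2 1.33). Both were higher on day 5 within each genotype. Apod was lower on day 5, at 4630 against 8990 CPM (WT) and 3530 against 5870 CPM (Ccr2-/-) (log2 -0.82 ± 0.092, edgeR adjusted p = 0.395), and so was Igfbp3, at 53.3 against 113 CPM and 27.9 against 62.7 CPM (log2 -1.11). None of these differences passed.

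**Figure D5:**
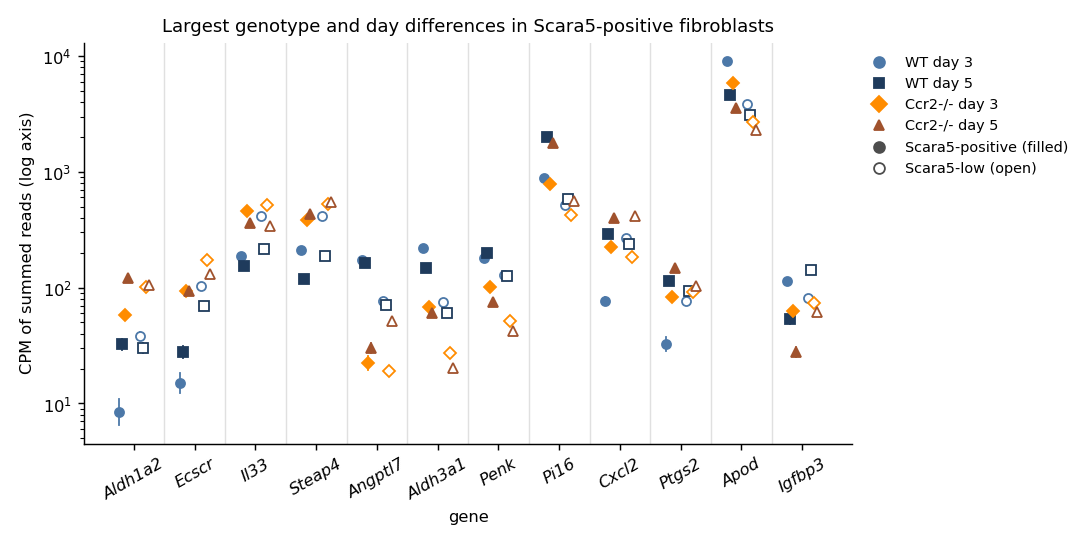
Genes with large genotype or day differences in the Scara5-positive fibroblasts (filled), with the Scara5-low fibroblasts (open) for comparison, in CPM of summed reads on a log axis with 95% Poisson intervals, 1 symbol per pool. Aldh1a2, Ecscr, Il33 and Steap4 have both Ccr2-/- pools above both WT pools, Angptl7, Aldh3a1 and Penk both below, and Pi16 has the day 5 pools at 2010 and 1760 CPM above the day 3 pools at 887 and 782 CPM; none of these differences passed the test.

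Whether the genotype difference itself differed between Scara5-positive and Scara5-low cells was tested as an interaction in edgeR's quasi-likelihood test, with the pool as a block. It called 0 of 16673 genes (0.0%), with 851 (5.1%) at an unadjusted p under 0.05 and 31 called by DESeq2. Cxcl5 had a log2 difference between genotypes of 0.84 in Scara5-positive and 1.9 in Scara5-low cells (difference -1.03 ± 0.27, edgeR adjusted p = 0.94). For Ccl11 these values were 0.22 and 1.61 (difference -1.36 ± 0.21, edgeR adjusted p = 0.801), and for Il1r1 the difference was -0.46 ± 0.18 (edgeR adjusted p = 0.944). The gap in these genes between the classes was thus wider in the Ccr2-/- pools by value, and the test did not call it. Myoc (-0.42 and -2.0, difference 1.61 ± 0.22, edgeR adjusted p = 0.801) and Hmcn2, the gene of the matrix protein hemicentin 2 (0.77 and -1.72, difference 2.53 ± 0.29, edgeR adjusted p = 0.801), had the opposite sign of the difference.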

How the data were processed

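Both deposited tables hold counts, not normalized by the authors: sequencing reads of 35208 genes in each barcode, and reads of each hashtag in each barcode. The hashtag table had 9 further columns, which were not used here. Per the study's methods and the labels, reads were trimmed with cutadapt, aligned to mouse RNA (GRCm38.p6) with Bowtie2, and the barcodes with the most reads were kept, down to the inflection of the ranked curve. Reads were not collapsed to molecules, so PCR copies count, and the background correction of the methods is not visible, since 22.1% of the values above 0 were 1. Doublets were handled here only by the hashtag ratio and the Ptprc limit.

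A barcode was placed in the pool of the hashtag with the highest count over its column total, if that was at least 3 times the next. Reads were summed per pool and class. CPM of sums carry exact Poisson 95% intervals and shares Clopper-Pearson 95% intervals. Differences were fitted with edgeR 4.0.16 (TMM, filterByExpr, quasi-likelihood test) in R 4.3.3, with Benjamini-Hochberg adjustment over all genes, and DESeq2 1.42.0 was an alternative. The scripts were tested on simulated data. A sum over a pool is 1 value, with no replicate of any group, so p-values measure the spread left after the model, and no test was made within a day. Rule genes and label markers were left out of counts of calls.

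The members and gene lists were chosen with earlier results of these data known. Named genes were Cxcl5, Il1r1, Saa3, Lcn2, Hp and the label markers, up to 4 called genes per list (at least 20 CPM) and the 10 largest rises and falls (at least 50 CPM, without Gm, Rik, mitochondrial and ribosomal protein symbols), or, where nothing passed, the same by size. Some list members are counted but not reported by name here. Other list members named were chosen after their values were seen. Positions are from GENCODE M21 on GRCm38, not the release used by the authors.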

Additional observations from a re-analysis of the deposited data

How the results depend on the processing

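The comparison of Scara5-positive with Scara5-low fibroblasts called 1264 genes, 728 with a hashtag ratio of 10, 289 among cells without a Ptprc read, 841 with cells thinned to 20000 reads, 2457 with DESeq2 and 254 to 993 when 1 pool was left out (468 without WT day 3, 522 without Ccr2-/- day 5). Without a filter on low counts the split was 745 higher and 1025 lower, against 663 and 601. Classes of the same pool share a hashtag and so form pairs, and without the replicate block the count was 672, with 24 of the 72 named calls lost. No named call turned its direction in any alternative. Between genotypes the count of 0 became 1 with Scara5 at 100 CPM or more, 10 with thinned cells, 59 with DESeq2, 20 without a filter and 0 to 13 when 1 pool was left out (12 without Ccr2-/- day 3). Between days it became 3 with Scara5 at 100 CPM or more, 15 with DESeq2, 5 without a filter and 0 to 1 when 1 pool was left out. The interaction gave 3 with thinned cells, 31 with DESeq2, 17 without a filter and 1 with a class by day term. The share difference of -17.2 points of fibroblasts stayed between -15.2 and -17.7 points. The mean of the cells' CPM lay outside the Poisson interval of the summed CPM for 256 of 320 values. Depth limits genes under about 20 CPM, and 3 reads were taken as the floor.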
